A study of Mus musculus with 20 samples.

Results

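Haematopoietic stem and progenitor cells that lack Fancd2 were compared with wild-type ones while both kinds of mice ate the androgen oxymetholone. The comparison rests on 6 of the 20 libraries of the series, 3 from Fancd2-/- and 3 from wild-type mice. They were chosen by their labels, and the differences are described across 13259 genes and 43 lists of genes. The lists and their members were chosen with earlier results of these data known, so comparisons of a list with all genes are descriptive. All mice were male, of the 129S4 background and 4 months old, and all had eaten chow milled with 300 mg/kg oxymetholone for 3 months since weaning at 3 to 4 weeks of age. The cells were bone marrow cells positive for cKit and Sca1 and negative for lineage markers (KSL cells), passed through the sorter in 2 rounds, and each library holds the mRNA of cells pooled from 5 mice. Libraries of Fancd2-/- and wild-type KSL cells on placebo chow, 3 of each and otherwise alike, are given beside them where the diet is of interest. The labels do not say how the Fancd2 allele was made.

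Fanconi anaemia is an inherited failure of the bone marrow caused by loss of any member of a DNA crosslink repair pathway. In that pathway a core complex attaches ubiquitin to FANCD2 and its partner FANCI, and the modified pair then directs nucleases and homologous recombination to the crosslink. Blood stem cells that lack the pathway accumulate DNA damage, which is known to activate p53. Oxymetholone is an anabolic androgen that has been used to raise blood counts in patients with the disease.

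The Fancd2-/- libraries, replicates 1, 2 and 3, held 14.5, 24.1 and 112.6 M counted reads, and the wild-type ones 32.5, 115.5 and 14.4 M. Values of the 3 libraries of a group are given in this order throughout, as counts-per-million (CPM). The 2 deepest libraries, Fancd2-/- replicate 3 and wild-type replicate 2, lay together at one end of the first principal component of the 6 libraries, which carried 35.2% of the variance and did not separate the genotypes. Kit, the receptor used in the sort, had 557, 486 and 515 CPM in Fancd2-/- cells, against 647, 636 and 746 CPM in wild-type cells, and Ly6a, which encodes Sca1, had 178, 190 and 122 CPM against 185, 122 and 186 CPM. The lineage gene Itgam was at 3.63 to 6.66 CPM in Fancd2-/- libraries and at 6.48 to 7.48 CPM in wild-type ones, and Cd3e and Cd8a were at or near 0. Tsc22d3, a glucocorticoid target, was at 578 CPM in wild-type replicate 1 and at 234 to 292 CPM in the other 5 libraries.

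Fancd2 (NM_001033244, chr6:113481676-113546279, mm9) was the check of the labels. It had 8.73, 6.63 and 6.59 CPM in Fancd2-/- cells, against 18.0, 20.1 and 23.5 CPM in wild-type cells. Every Fancd2-/- library was below every wild-type one. Fancd2 fell by 1.50 on the log2 scale (SE 0.18, edgeR quasi-likelihood test, Benjamini-Hochberg adjusted p = 0.00531). The 128, 161 and 721 reads left in Fancd2-/- libraries were not traced to exons. The 107 other genes tested within 10 Mb of Fancd2 included 0 called genes. Of them 9 had an unadjusted p under 0.05, as had 5.57% of all genes tested. Their median log2 difference was 0.0006, with a range of -3.12 to 1.30.

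Few transcripts passed the test between the genotypes under oxymetholone. Socs2, Slamf1, Cfp and 6530418L21Rik rose, and Fancd2 fell together with 12 other genes, among them genes of the actin cytoskeleton (Rtkn, Fscn1), of the extracellular matrix and its proteolysis (Mmp2, Tinagl1, Htra3), the phosphodiesterase Pde2a and the imprinted gene Ndn. In all 17 genes of 13259 were called at an adjusted p under 0.05, which is 0.128% of the genes tested, with 4 higher (0.0302%) and 13 lower (0.0980%) in Fancd2-/- cells. In each of the 17 the groups did not overlap, and over all genes 5.60% were higher and 6.83% lower without overlap. The called log2 differences were between 0.79 and 2.18 in size, against a median size of 0.12 over all genes. The call itself favours large differences and groups that do not overlap. Of all genes tested, 738 (5.57%) had an unadjusted p under 0.05.

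The calls draw on the spread among all 12 KSL libraries. With the 6 oxymetholone libraries alone 0 genes were called (767 at an unadjusted p under 0.05, smallest adjusted p = 0.118), and DESeq2 called 86. With each of the 6 libraries left out in turn, Fancd2 was called each time. Socs2 and Rtkn were called each time except without wild-type replicate 2. Pde2a was called except without Fancd2-/- replicate 2 or wild-type replicate 3, and the other 13 were called at most once. Each of the 17 kept its direction, which was fixed in advance because their groups do not overlap.

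**Figure D1:**
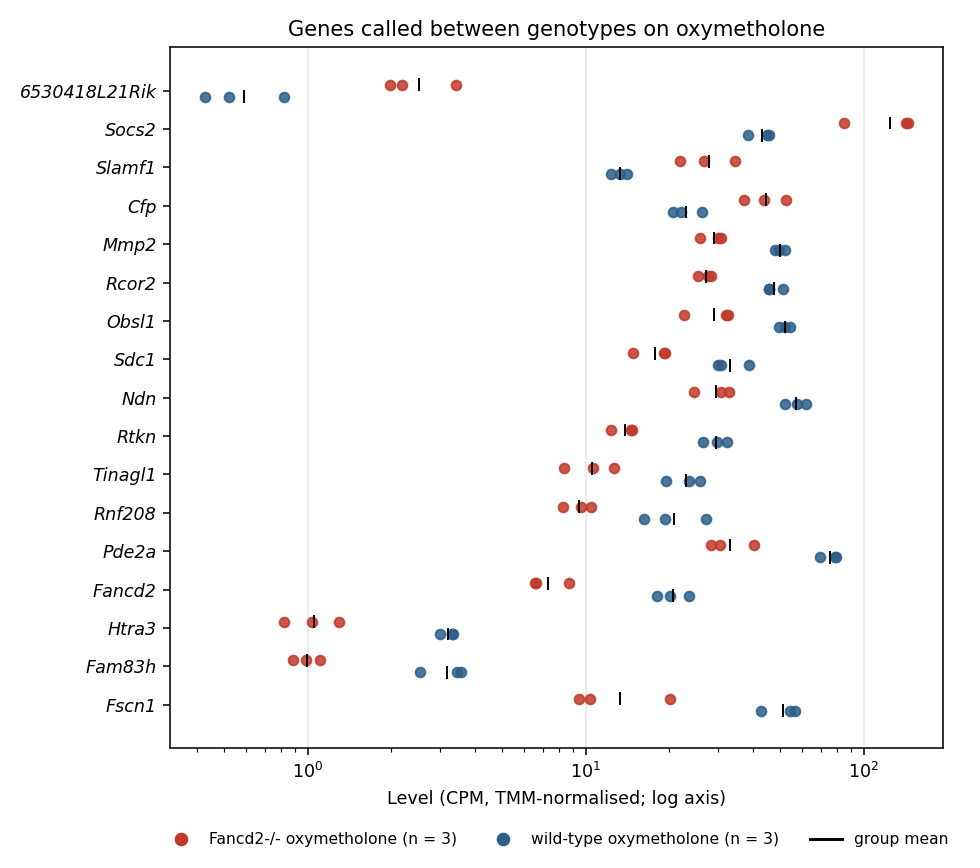
Level of each of the 17 called genes in the 6 oxymetholone KSL libraries, in CPM on a log axis; red points are Fancd2-/- libraries, blue points wild-type libraries and black bars the means of 3 libraries. The 4 genes at the top are those that rose in Fancd2-/- cells, and in no gene do the red and blue points overlap.

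Socs2 (NM_007706, chr10:94874124-94879491, mm9), a feedback inhibitor of cytokine and growth hormone receptors and a known STAT5 target, had the smallest p of the genes that rose. It had 142, 145 and 84.9 CPM in Fancd2-/- cells, against 44.8, 38.5 and 45.8 CPM in wild-type cells. The deepest Fancd2-/- library was the lowest of its group and still above every wild-type library. Socs2 was 2.88-fold higher (log2 difference 1.52, SE 0.19, edgeR adjusted p = 0.00531). Its Fancd2-/- level was 124 ± 33.7 CPM and its wild-type level 43.0 ± 3.97 CPM (SD, n = 3 each).

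Slamf1 (NM_013730, chr1:173697263-173731315), which encodes the stem cell marker CD150, had 21.9, 34.5 and 26.7 CPM in Fancd2-/- cells, against 14.1, 13.3 and 12.3 CPM in wild-type cells. The Fancd2-/- libraries varied more among themselves than the wild-type ones and did not overlap with them. It was 2.09-fold higher (log2 difference 1.06, SE 0.17, edgeR adjusted p = 0.0316). Cfp, which encodes properdin, the activator of the alternative complement pathway, had 43.7, 37.2 and 52.4 CPM in Fancd2-/- cells, against 26.3, 20.7 and 21.96 CPM in wild-type cells (log2 difference 0.96, SE 0.16, adjusted p = 0.0382). 6530418L21Rik was a low transcript, at 1.98, 2.18 and 3.40 CPM in Fancd2-/- cells, against 0.43, 0.52 and 0.82 CPM in wild-type cells (log2 difference 2.18, SE 0.37, adjusted p = 0.0392).

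The next 8 genes by p in this direction did not pass the test and are given as values. Gdf15, a stress-induced member of the TGF-beta family and a p53 target, had 2.25, 2.97 and 5.05 CPM in Fancd2-/- cells, against 1.01, 0.73 and 1.03 CPM in wild-type cells (log2 difference 1.95, edgeR adjusted p = 0.0529). Gimap4 and Gimap7, GTPases known from lymphocytes, had log2 differences of 1.76 and 0.94 (adjusted p = 0.071 and 0.117). Gimap4 was at 32.5, 31.5 and 12.1 CPM in Fancd2-/- cells, against 8.90, 5.70 and 7.89 CPM in wild-type cells, so the deepest Fancd2-/- library held the least of its group. Gimap7 lies within the annotated span of Gimap1, which differed by -0.02. The others were Bcam, a laminin receptor (1.05), the carbohydrate sulphotransferases Chst2 and Chst1 (0.88 and 2.41), the solute carrier Slc37a3 (0.94) and Clec4e, a receptor of innate immunity (0.80).

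Among the genes that fell, those of the cytoskeleton were Rtkn, Fscn1 and Obsl1. Rtkn encodes rhotekin, an effector of small GTPases; it had 14.5, 14.7 and 12.3 CPM in Fancd2-/- cells, against 26.4, 32.3 and 29.6 CPM in wild-type cells. The groups were tight and well apart, and Rtkn fell by 1.10 on the log2 scale (SE 0.14, edgeR adjusted p = 0.00531). Rtkn shares 3219 bases with Wdr54 on the opposite strand, which had at most 1.10 CPM in any of the 6 libraries. Fscn1, which encodes the actin-bundling protein fascin, had 20.1, 9.43 and 10.4 CPM in Fancd2-/- cells, against 42.6, 56.6 and 54.3 CPM in wild-type cells. It had the largest fall of the 13 (1.97 on the log2 scale, SE 0.30, adjusted p = 0.0274), and Fancd2-/- replicate 1, the highest of its group, was still below every wild-type library. Obsl1, a cytoskeletal adaptor, had 22.6, 31.9 and 32.5 CPM in Fancd2-/- cells, against 49.7, 52.0 and 54.3 CPM in wild-type cells (fell by 0.84, adjusted p = 0.0473). Rtkn and Fscn1 were the called members of 33 tested genes of the actin cytoskeleton and its regulators, whose median log2 difference was -0.02, against 0.01 over all genes.

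Secreted and cell surface proteins formed a further group. Mmp2 (chr8:95351227-95377319), the matrix metalloproteinase gelatinase A, had 25.8, 29.99 and 30.7 CPM in Fancd2-/- cells, against 49.5, 52.2 and 48.1 CPM in wild-type cells (fell by 0.79 on the log2 scale, SE 0.11, edgeR adjusted p = 0.0171). Tinagl1, a matrix glycoprotein, had 12.7, 10.6 and 8.36 CPM against 19.4, 25.8 and 23.5 CPM in wild-type cells (fell by 1.13, adjusted p = 0.0316). Htra3, a secreted serine protease, had 1.30, 0.82 and 1.03 CPM against 3.00, 3.33 and 3.29 CPM in wild-type cells (fell by 1.63, adjusted p = 0.0412). These are the 3 called members of the 32 tested matrix and protease genes, of which 24 were below 0 and 8 above, against 51.6% of all genes above 0. The list had a median of -0.11. That median was -0.28 without Fancd2-/- replicate 3 and -0.06 without Fancd2-/- replicate 1. Htra1, Mmp15 and Mmp14 were not called, and Mmp14, which activates the pro-form of Mmp2, had a log2 difference of -0.69 (adjusted p = 0.999). Sdc1, the heparan sulphate proteoglycan syndecan-1, had 19.3, 19.1 and 14.8 CPM in Fancd2-/- cells, against 30.01, 30.6 and 38.7 CPM in wild-type cells (fell by 0.90, adjusted p = 0.0473). Of the 8 tested syndecans and glypicans 7 were below 0, and none of the others was called.

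The remaining genes that fell act in signalling and in the nucleus. Pde2a (chr7:108599766-108661341) encodes a phosphodiesterase that degrades cAMP and cGMP and is stimulated by cGMP. It had 28.1, 30.3 and 40.4 CPM in Fancd2-/- cells, against 78.9, 69.4 and 79.5 CPM in wild-type cells, and fell by 1.198 on the log2 scale (SE 0.15, edgeR adjusted p = 0.00624). Of 17 tested phosphodiesterases it was the called one. Rcor2, a partner of the histone demethylase LSD1, had 28.1, 25.3 and 27.5 CPM against 45.8, 51.3 and 45.7 CPM in wild-type cells (fell by 0.82, adjusted p = 0.0316). Its paralogue Rcor1 was at 92.3, 86.2 and 124 CPM in Fancd2-/- cells, against 90.7, 108 and 88.0 CPM in wild-type cells, with overlap. Rnf208, a RING finger gene, fell by 1.14 (adjusted p = 0.0392) and Fam83h by 1.65 (adjusted p = 0.0416). Fam83h had 0.89, 0.99 and 1.11 CPM in Fancd2-/- cells, against 2.54, 3.55 and 3.43 CPM in wild-type cells, and its locus shares 430 bases with a gene on the opposite strand.

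Ndn and most other members of the list of imprinted growth genes were lower. Imprinted genes are expressed from one parental allele, and many of them set growth or hold stem cells quiescent. Ndn (chr7:69493163-69494813), a paternally expressed growth suppressor that is known to restrain stem cell cycling, had 32.7, 30.7 and 24.5 CPM in Fancd2-/- cells, against 62.0, 52.1 and 57.7 CPM in wild-type cells. All 3 Fancd2-/- libraries were far below the wild-type ones, and Ndn fell by 0.97 on the log2 scale (SE 0.14, edgeR adjusted p = 0.0171). It was the called gene among 16 tested members of the list, of which 13 were below 0, with a median of -0.41 against 0.01 over all genes. In 9 of the 16 every Fancd2-/- library was below every wild-type one, which held for 6.83% of all genes tested. The members were chosen with earlier results of these data known, and they include Ndn itself and Plag1, described below. The share therefore describes this list and cannot test whether imprinted genes fell as a class.

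Plag1, a transcription factor known to activate Igf2 that was listed with these genes, had 1.91, 2.31 and 2.20 CPM in Fancd2-/- cells, against 4.13, 5.76 and 6.04 CPM in wild-type cells (log2 difference -1.30, SE 0.26, edgeR adjusted p = 0.105). Igf2, the paternally expressed growth factor, was low, at 0.41, 1.07 and 0.88 CPM against 1.13, 2.60 and 1.51 CPM in wild-type cells (-1.13, adjusted p = 0.573). Its decoy receptor Igf2r, expressed from the maternal allele in mice, was lower too, at 25.9, 26.2 and 30.3 CPM against 32.8, 39.8 and 34.8 CPM in wild-type cells (-0.38, adjusted p = 0.812). Igf2 and Igf2r, of opposite parental expression and opposite effect on growth, were both on the lower side, and neither was called. Dlk1 had the largest difference of the list (-2.03) but an SE of 1.25. Cdkn1c, a cyclin-dependent kinase inhibitor of stem cell quiescence, overlapped between the groups (-0.24).

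**Figure D2:**
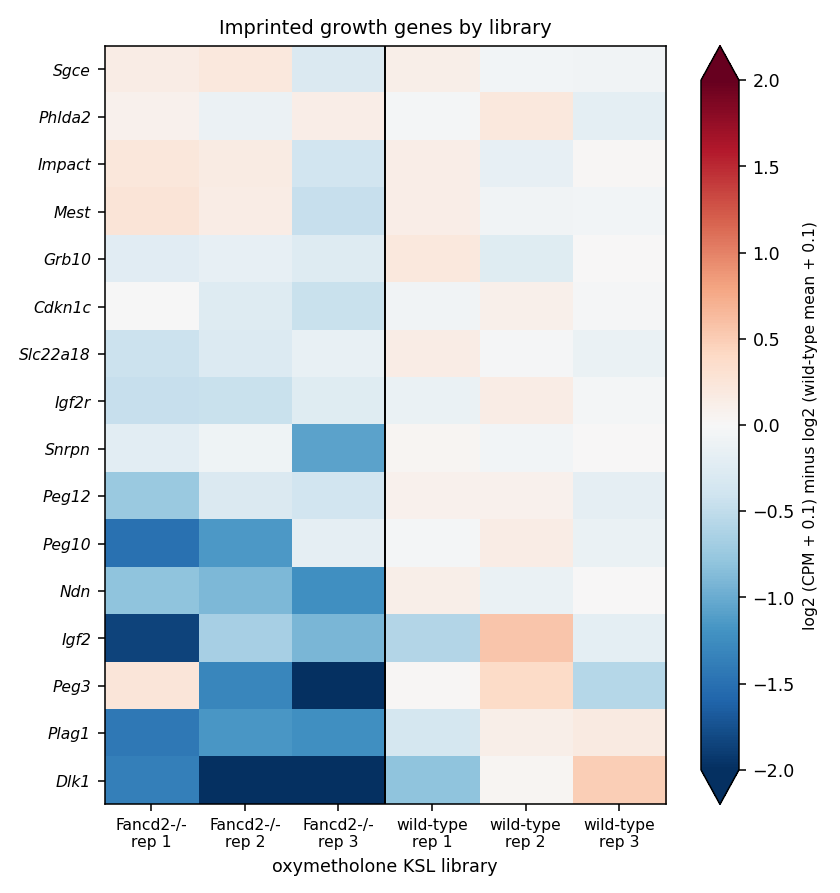
Imprinted growth genes in the 6 oxymetholone KSL libraries; colour is the log2 of each library's CPM plus 0.1 minus that of the wild-type mean, Fancd2-/- libraries left and wild-type right. From Slc22a18 down most Fancd2-/- squares are blue, and Ndn, Plag1 and Dlk1 are blue in all 3.

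Targets of p53 were for the most part higher in Fancd2-/- cells, but none was called. Of 23 tested targets 19 were above 0, where 51.6% of all genes were, and their median log2 difference was 0.23. The groups did not overlap in 7, all higher in Fancd2-/- cells, which held for 5.60% of all genes. Besides Gdf15 these included Phlda3, a p53-induced inhibitor of Akt, at 12.1, 13.5 and 24.1 CPM in Fancd2-/- cells, against 5.995, 6.49 and 4.19 CPM in wild-type cells (log2 difference 1.57, SE 0.37, edgeR adjusted p = 0.203). Eda2r, a receptor of the TNF family, had 1.30, 2.84 and 2.28 CPM against 0.83, 0.44 and 0.82 CPM in wild-type cells (1.70, adjusted p = 0.187). Zmat3, an RNA-binding p53 target, had 11.4, 11.2 and 16.8 CPM against 7.28, 7.73 and 6.17 CPM in wild-type cells (0.89, adjusted p = 0.467). Fancd2-/- replicate 3 was the highest library for Gdf15, Phlda3 and Zmat3.

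The differences were not shared by all p53 targets. Cdkn1a, which encodes the cell cycle inhibitor p21, had 89.7, 104 and 154 CPM in Fancd2-/- cells, against 194, 68.1 and 64.4 CPM in wild-type cells. Wild-type replicate 1, the library with high Tsc22d3, held the highest value of all 6, and the log2 difference was 0.09 (SE 0.43). Mdm2, Bax and Fas overlapped between the groups as well. In the BCL2 family 12 of 15 tested genes were above 0, against 51.6% of all genes, with a median of 0.13 and none called. That median was -0.01 without Fancd2-/- replicate 3. Without overlap 1 member was lower and 1 higher, as were 6.83% and 5.60% of all genes. The lower one, the pro-apoptotic Bmf, was at 2.05, 1.81 and 1.69 CPM in Fancd2-/- cells, against 8.17, 4.51 and 3.50 CPM in wild-type cells (log2 difference -1.57, edgeR adjusted p = 0.172), with wild-type replicate 1 again the highest. Bok, a relative of Bax, was at 52.0, 45.4 and 51.9 CPM against 31.3, 35.1 and 30.4 CPM in wild-type cells (0.62, adjusted p = 0.387).

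**Figure D3:**
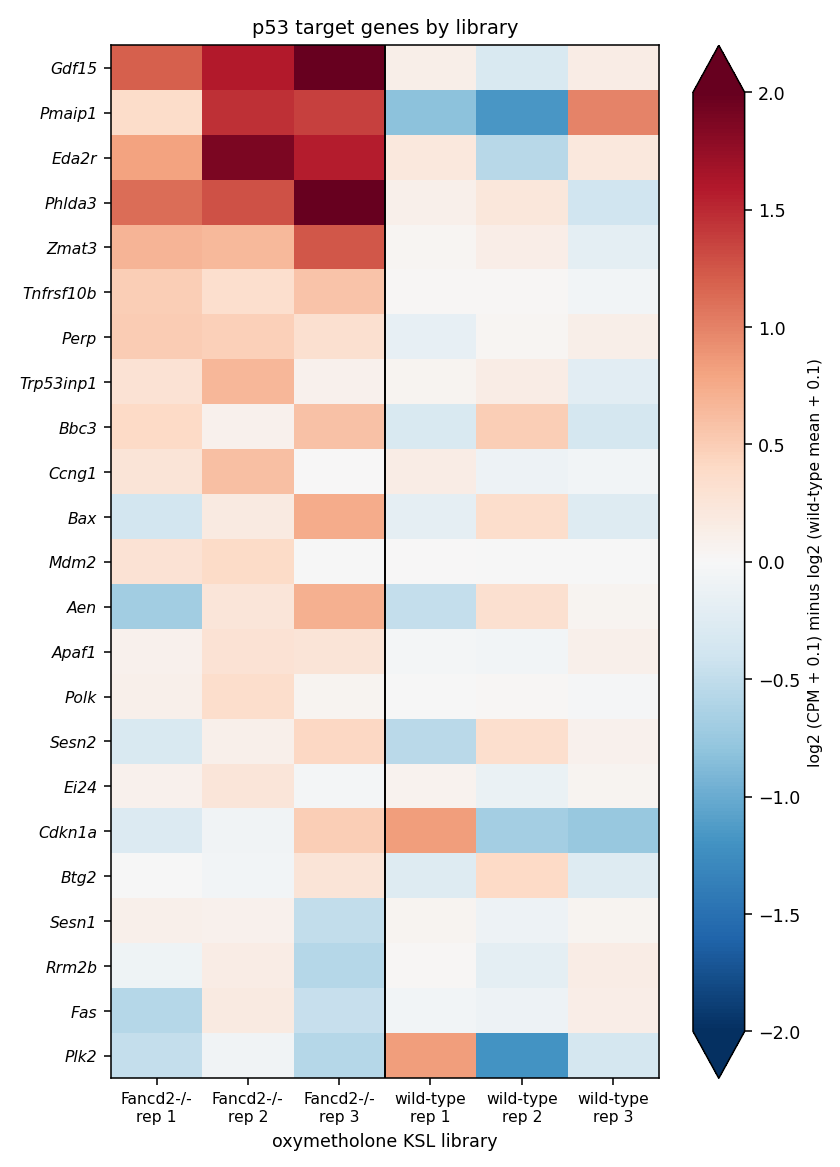
p53 target genes in the 6 oxymetholone KSL libraries, ordered by log2 difference; colour is the log2 of each library's CPM plus 0.1 minus that of the wild-type mean, Fancd2-/- libraries left and wild-type right. Gdf15, Eda2r, Phlda3 and Zmat3 are red in all 3 Fancd2-/- libraries, whereas Cdkn1a is reddest in wild-type replicate 1.

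Mitotic genes were slightly higher in Fancd2-/- cells. Of 30 tested members 29 were above 0, with a median log2 difference of 0.23, and in 16 of them every Fancd2-/- library exceeded every wild-type one; none was called. Over all genes 51.6% were above 0, and 5.60% were higher without overlap. Ccnb2, which encodes cyclin B2, had 178, 189 and 165 CPM in Fancd2-/- cells, against 141, 137 and 147 CPM in wild-type cells (0.32, SE 0.13, edgeR adjusted p = 0.765). Cdk1, the kinase that drives entry into mitosis, had 209, 224 and 209 CPM against 172, 170 and 166 CPM in wild-type cells (0.34, adjusted p = 0.896). Cenpa, the histone of the centromere, had 105, 117 and 113 CPM against 86.8, 91.3 and 91.9 CPM in wild-type cells (0.31, adjusted p = 0.781). Ube2c, the ubiquitin-conjugating enzyme of the anaphase-promoting complex, had the largest difference (0.39). Mki67, the proliferation marker Ki-67, overlapped, at 266, 299 and 256 CPM in Fancd2-/- cells, against 254, 270 and 248 CPM in wild-type cells.

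Mitotic genes are known to share 2 promoter elements, the cell cycle homology region (CHR, TTTGAA) bound by MuvB complexes and the CCAAT box bound by NF-Y. The promoters of the 3 mitotic genes with the smallest p are shown because most promoters of the list hold these elements. They are RefSeq windows of 300 bases on GRCm38.p6, from 250 bases before to 50 after the start, with both elements in capitals, also where they stand as the reverse complement.
Ccnb2, chr9:70421505-70421804, minus strand: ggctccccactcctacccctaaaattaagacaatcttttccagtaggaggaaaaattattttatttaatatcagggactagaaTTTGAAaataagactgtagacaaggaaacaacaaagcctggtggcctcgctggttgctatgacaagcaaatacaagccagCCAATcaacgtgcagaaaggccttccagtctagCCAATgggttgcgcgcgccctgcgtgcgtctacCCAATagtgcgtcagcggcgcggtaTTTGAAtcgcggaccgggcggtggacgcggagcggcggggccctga
Cenpa, chr5:30666636-30666935, plus strand: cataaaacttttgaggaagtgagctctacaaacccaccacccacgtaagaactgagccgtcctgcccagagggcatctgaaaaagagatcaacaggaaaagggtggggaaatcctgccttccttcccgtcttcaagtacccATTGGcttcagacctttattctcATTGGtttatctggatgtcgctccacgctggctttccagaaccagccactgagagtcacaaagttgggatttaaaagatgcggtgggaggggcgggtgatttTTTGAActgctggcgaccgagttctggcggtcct
Cdk1, chr10:69352863-69353162, minus strand: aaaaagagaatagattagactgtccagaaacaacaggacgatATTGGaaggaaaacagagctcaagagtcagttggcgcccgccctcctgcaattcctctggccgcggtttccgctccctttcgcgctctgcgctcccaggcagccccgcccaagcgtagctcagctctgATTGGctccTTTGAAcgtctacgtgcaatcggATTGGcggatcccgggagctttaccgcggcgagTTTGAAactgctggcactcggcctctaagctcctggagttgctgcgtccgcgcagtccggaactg

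Promoter windows were given for 25 of the 30 mitotic genes, and 17 of the 25 (68.0%) held TTTGAA in a window, against 20.2% of all 27025 genes with a window. CCAAT stood in 21 of the 25 (84.0%), against 41.1% of all genes. Both stood in 17 of the 25, against 7.97% of all genes. Counted by window, of which there are 32851, the shares were 17.9%, 37.4% and 6.95%. A match is a description of the letters in these windows and was not tested for binding.

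DNA replication and repair genes showed smaller shifts of the same sign. Of 35 tested replication genes 27 were above 0 (median log2 difference 0.13), and of 29 genes of double-strand break repair 25 were above 0 (median 0.11), none called in either. Over all genes 51.6% were above 0. Higher without overlap were 6 of the 35 and 5 of the 29, and 5.60% of all genes. Rrm2, the small subunit of ribonucleotide reductase, had 87.7, 95.4 and 102 CPM in Fancd2-/- cells, against 70.5, 67.6 and 77.1 CPM in wild-type cells (0.41, edgeR adjusted p = 0.501). Lig4, the ligase of end joining, had 4.98, 5.56 and 5.58 CPM against 3.55, 3.79 and 2.74 CPM in wild-type cells (0.66, adjusted p = 0.538), and Polq, the polymerase of microhomology-mediated joining, 18.7, 16.7 and 22.5 CPM against 13.3, 16.2 and 15.2 CPM in wild-type cells (0.37, adjusted p = 0.87). Brca1 and Exo1, of homologous recombination and end resection, differed by 0.26 and 0.27, with no overlap between groups. Of the 24 other genes of the Fanconi pathway none had an unadjusted p under 0.05, and their median was 0.06. Fanci, the partner of Fancd2, had 76.7, 59.4 and 69.0 CPM in Fancd2-/- cells, against 58.7, 64.6 and 62.8 CPM in wild-type cells.

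Within the SLAM family, whose members sort stem cells from progenitors, Slamf1 rose and others were not called. Cd48, which marks progenitors and is low on stem cells, had 261, 284 and 232 CPM in Fancd2-/- cells, against 205, 190 and 179 CPM in wild-type cells (log2 difference 0.44, SE 0.13, edgeR adjusted p = 0.46), and Ly9 differed by 0.45. Transcripts of a stem cell marker and of a marker that stem cells lack were thus both on the higher side. Of 29 stem cell genes 10 were above 0, against 51.6% of all genes, with a median of -0.13 and Slamf1 as the called one. Lower without overlap were 5 of the 29 and 6.83% of all genes. In bulk samples fewer cells of a type and less RNA per cell cannot be told apart.

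The stem cell genes that were lower in every Fancd2-/- library included Prdm16, a stem cell transcription factor, at 48.8, 37.7 and 46.1 CPM in Fancd2-/- cells, against 53.1, 64.7 and 64.4 CPM in wild-type cells (log2 difference -0.46, edgeR adjusted p = 0.556). The transcription factor Meis1 differed by -0.25. Vwf, a marker of platelet-biased stem cells, was on the other side, at 15.96, 21.3 and 24.0 CPM against 14.6, 15.5 and 16.6 CPM in wild-type cells (0.40, adjusted p = 0.754).

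Cytokine receptors were mostly lower, and their feedback genes mostly higher. Of 18 tested receptors 12 were below 0 and 6 above, against 51.6% of all genes above 0, and none was called. Their median was -0.16, and 4 of the 18 were lower without overlap, as were 6.83% of all genes. Kit differed by -0.38 (SE 0.18, edgeR adjusted p = 0.90), and Flt3, the receptor of lymphoid-primed progenitors, had 504, 453 and 472 CPM in Fancd2-/- cells, against 555, 633 and 588 CPM in wild-type cells (-0.31, adjusted p = 0.873). Epor, the erythropoietin receptor, was the exception above 0 with the smallest p, at 7.03, 9.19 and 10.8 CPM against 4.89, 8.05 and 5.35 CPM in wild-type cells (0.56, adjusted p = 0.839). Of 21 STAT5 targets and feedback genes 17 were above 0, against the same 51.6%, with Socs2 called. Their median was 0.10, and 3 of the 21 were higher without overlap, as were 5.60% of all genes. Ccnd1, which encodes cyclin D1, had 174, 144 and 188 CPM in Fancd2-/- cells, against 93.1, 103 and 85.01 CPM in wild-type cells (0.84, SE 0.21, adjusted p = 0.212). Cish, the closest relative of Socs2, had 167, 185 and 143 CPM against 193, 121 and 160 CPM in wild-type cells, with overlap.

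Of 16 genes of lymphoid priming 14 were below 0 and 2 above, against 51.6% of all genes above 0, and none was called. Their median was -0.15, or -0.06 without wild-type replicate 2. Lower without overlap were 2 of the 16, and 6.83% of all genes. The summed levels overlapped, at 2877 to 3639 CPM in Fancd2-/- libraries and 3332 to 4064 CPM in wild-type ones. Satb1, a chromatin organiser of lymphoid priming, had 92.8, 79.2 and 110 CPM in Fancd2-/- cells, against 138, 167 and 136 CPM in wild-type cells (log2 difference -0.64, SE 0.22, edgeR adjusted p = 0.584).

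Genes of the sort and of other cell types are given beside these differences, and their part in them was not tested. The list of KSL gate genes also holds Cd34, Flt3 and Ptprc, which are not markers of the sort. All 8 tested genes of the list were below 0 with none called, while over all genes 51.6% were above 0. Kit, Flt3 and Cd4 were lower without overlap, as were 6.83% of all genes, and Ly6a overlapped (-0.01). The list summed to 2592 to 2656 CPM in Fancd2-/- libraries, against 2992 to 3088 CPM in wild-type ones. Cd34 alone gave 1126 to 1342 CPM of these sums in Fancd2-/- libraries and 1305 to 1374 CPM in wild-type ones. The summed level of megakaryocyte markers, of which 12 of 19 were above 0, was 897 to 955 CPM in Fancd2-/- libraries, against 1099 to 1191 CPM in wild-type ones. Neutrophil granule markers, of which 13 of 18 were above 0, summed to 979, 903 and 2352 CPM in Fancd2-/- libraries, against 1719, 2050 and 1757 CPM in wild-type ones. Mpo, the leading gene of that sum, was at 721, 610 and 1785 CPM in Fancd2-/- cells, against 1372, 1674 and 1370 CPM in wild-type cells, so only Fancd2-/- replicate 3 reached the wild-type range. Monocyte and macrophage markers, of which 8 of 14 were above 0, summed to 599 to 671 CPM in Fancd2-/- libraries, against 510 to 588 CPM in wild-type ones, so the sums did not overlap. Their median log2 difference was 0.15, and none was called. Mast cell, basophil and eosinophil markers had a median of 0.36, the highest of the 43 lists, with 11 of 14 above 0 and none called. Their summed level was low, at 28.2 to 40.8 CPM in Fancd2-/- libraries, against 18.7 to 31.02 CPM in wild-type ones. Erythroid markers had a median of 0.22, with 13 of 23 above 0 and none called, and summed to 2078 to 2412 CPM in Fancd2-/- libraries, against 2159 to 2279 CPM in wild-type ones. The haemoglobin gene Hbb-b1 was at 0.46 to 1.52 CPM in Fancd2-/- libraries and at 0.64 to 1.17 CPM in wild-type ones. B cell markers differed widely, from -1.56 to 4.70, with 6 of 16 above 0, a median of -0.15 and none called. An unadjusted p under 0.05 was found for 6 of the 16, 4 higher and 2 lower, against 5.57% of all genes. Their sums overlapped, at 555 to 698 CPM in Fancd2-/- libraries and 581 to 725 CPM in wild-type ones.

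Energy metabolism, interferon and telomere genes were not called either. Of 34 respiratory chain genes 33 were above 0, against 51.6% of all genes, with a median of 0.15, and none had an unadjusted p under 0.05. Higher without overlap were 5 of the 34, and 5.60% of all genes. Their median was 0.09 without wild-type replicate 3 and 0.24 without wild-type replicate 1. Interferon response genes had a median of -0.05 over 33 members, with 0 at an unadjusted p under 0.05, and shelterin and telomerase genes a median of 0.004 over 17 members. Among TGF-beta genes, Smad7, the inhibitory SMAD, was at 19.3, 16.9 and 17.3 CPM in Fancd2-/- cells, against 28.9, 22.2 and 22.8 CPM in wild-type cells (log2 difference -0.47, edgeR adjusted p = 0.567). Spp1, which encodes osteopontin and is named in the series title, had 16.1, 12.98 and 5.52 CPM against 7.98, 6.66 and 8.99 CPM in wild-type cells, with overlap (0.52, SE 1.39, edgeR adjusted p = 0.999). That SE draws on all 12 KSL libraries and not on these 6 alone. Spp1 was at 561 CPM in Fancd2-/- placebo replicate 3, against 13.9 and 13.3 CPM in the other Fancd2-/- placebo libraries. Wild-type placebo replicate 1 had 34.2 CPM.

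**Figure D4:**
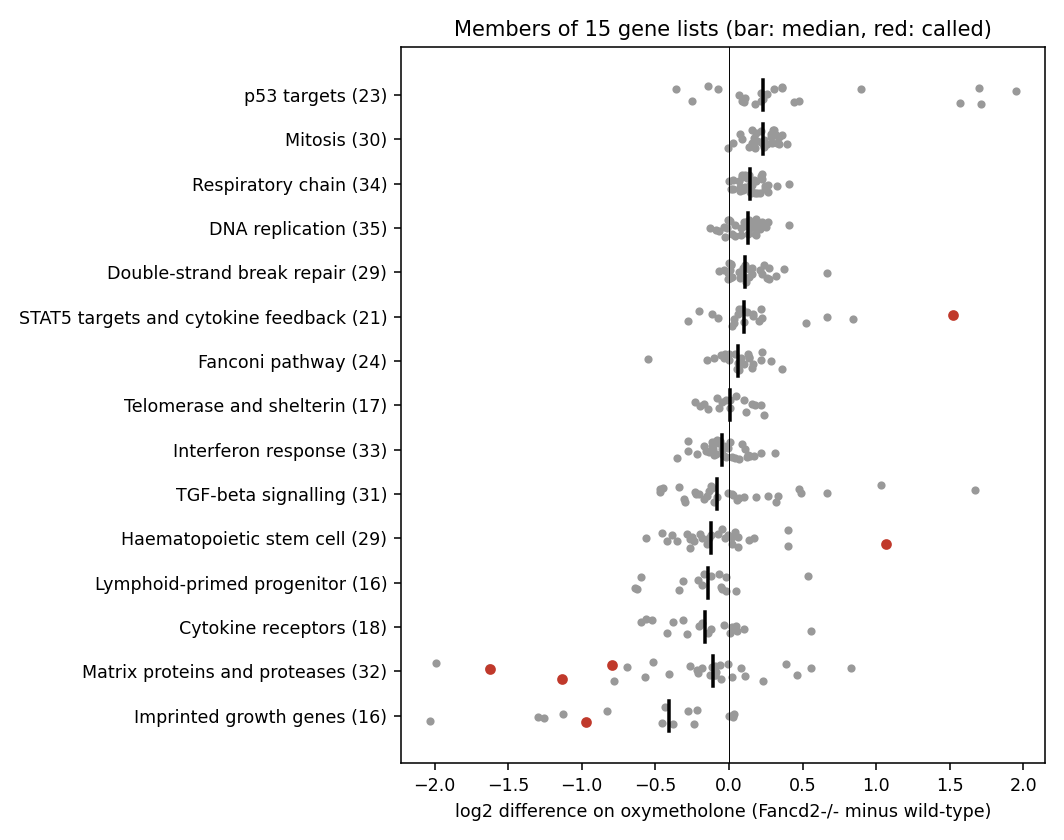
Log2 difference on oxymetholone, Fancd2-/- minus wild-type, of the tested members of 15 lists, with the number tested in brackets; each point is a gene, red points are called genes and black bars are medians. The bars of p53 targets and mitosis lie at 0.23 and that of imprinted growth genes at -0.41.

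Set beside placebo, the genotype difference under oxymetholone involved fewer called genes, while each called gene was on the same side. On placebo 170 genes (1.28%) were called between Fancd2-/- and wild-type cells, and 76 without Fancd2-/- placebo replicate 3, a library in which long transcripts were low (log2 level changed by -0.189 for each doubling of length, while the KSL libraries beside it ranged between -0.0451 and 0.103). Of the 17 genes called on oxymetholone 15 were also called on placebo, or 13 without that library, and all 17 had the same sign. The difference between the diets was tested as an interaction. It called 0 of 13259 genes (270 at an unadjusted p under 0.05, smallest edgeR adjusted p = 0.999), and DESeq2 called 0 as well (308 at an unadjusted p under 0.05).

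Slamf1 was the one of the 17 with an unadjusted interaction p under 0.05. It differed by 1.06 (SE 0.17) on oxymetholone and by 0.52 (SE 0.17) on placebo (edgeR interaction, adjusted p = 0.999), and without Fancd2-/- placebo replicate 3 its unadjusted p was above 0.05. Socs2 differed by 1.52 on oxymetholone and 1.36 on placebo, and Rtkn by -1.10 and -1.09. Sdc1 was the other gene not called on placebo (-0.90 on oxymetholone and -0.48 on placebo).

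Mitosis was the list with the most members at an unadjusted interaction p under 0.05. Their median genotype difference was 0.23 on oxymetholone and 0.72 on placebo, where 15 of 30 were called, and 16 of 30 had an unadjusted interaction p under 0.05, against 2.04% of all genes. Without Fancd2-/- placebo replicate 3 the median on placebo was 0.62, with 6 called and 13 at an interaction p under 0.05. With the flow cytometry pair of each library as a block, 20 of 30 had an unadjusted interaction p under 0.05, as did 457 of all 13259 genes, and none was called. Ccnb2 differed by 0.32 on oxymetholone and 0.91 on placebo (edgeR interaction, adjusted p = 0.999). For p53 targets the medians were 0.23 on oxymetholone and 0.21 on placebo, and for imprinted growth genes -0.41 and -0.30. Without Fancd2-/- placebo replicate 3 the placebo medians were 0.16 for p53 targets and -0.49 for imprinted growth genes. For the imprinted genes the order of the diets thus depended on that 1 library.

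**Figure D5:**
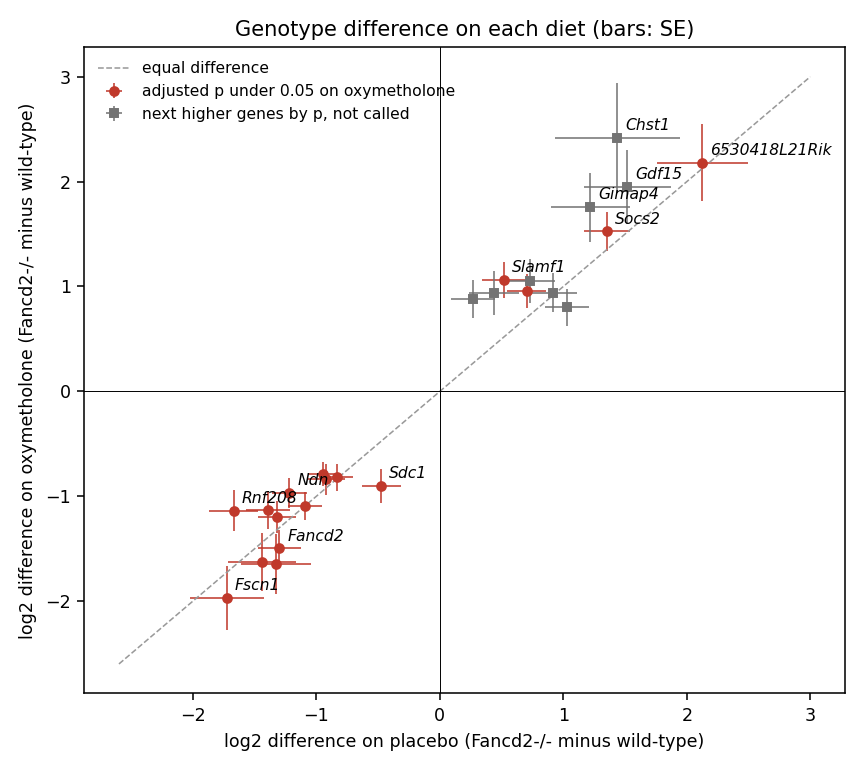
Log2 difference between Fancd2-/- and wild-type cells on oxymetholone (vertical) and on placebo (horizontal) for the 17 called genes (red) and the 8 next higher genes by p (grey), with bars of 1 SE; the dashed line marks equal differences. All points lie in the quadrants of equal sign, Slamf1 above the line and Sdc1 below it.

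Libraries differ in the prefix of their titles. Within the titles that start with COM, 1 library of each genotype, the called genes that rose differed by 0.82 to 1.63 and those that fell by -1.84 to -0.70 on the log2 scale. Within those that start with HSC, 2 of each genotype, the ranges were 0.93 to 2.33 and -2.31 to -0.66. The signs within each prefix follow from groups that do not overlap in the called genes. The medians within COM and HSC titles were 0.25 and 0.31 for p53 targets, -0.26 and -0.39 for imprinted growth genes, 0.10 and 0.30 for mitotic genes, and -0.34 and -0.03 for matrix and protease genes.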

How the data were processed

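RNA of pooled, sorted bone marrow cells was sequenced as 51-base reads from TruSeq libraries, per the labels' protocols. The submitters' processing notes name Bowtie, edgeR and mm9; their versions, the counting strand and the treatment of ambiguous reads are not stated in these sources. The deposited counts are reads per RefSeq transcript (26005 rows, 20 libraries), and the row with the largest total was kept for each of 20377 symbols. A deposited normalized matrix holds a score, which from its values is the counts scaled to a common 20 M per library as whole numbers; it entered one alternative. One Fancd2-/- placebo column is known by its group alone, from the design text. Positions are those of the deposited table, 1-based.

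Genes were tested with edgeR 4.0.16 in R 4.3.3 (TMM, filterByExpr, robust quasi-likelihood) over group means of all 12 KSL libraries, which leaves 13259 genes, with Benjamini-Hochberg adjustment over all of them and calls at adjusted p under 0.05. The script was tested on simulated data. Differences are Fancd2-/- minus wild-type. Levels are TMM-normalised CPM. Each library pools 5 mice, and nothing says that the pools of a group came from separate cohorts, so p-values measure the spread between pools. Genotype is constant within a flow cytometry pair, so no pair term entered the genotype test; the pair was a block in an added fit of the interaction. Replicate numbers follow sample order and only name libraries.

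Named genes were every called gene with a mean of at least 1 CPM, the next by p with groups that do not overlap until each direction had 12, and in each list the called members and up to 4 with the smallest p; a few more members were named after their values were seen, to show exceptions within a list. The members and all 43 lists were chosen with earlier results of these data known. The alternatives were median-of-ratios (RLE) size factors, no filter, DESeq2 1.42.0, limma 3.58.1 voom with quality weights or with the pair as a random effect, fewer libraries, a term for the title prefix, every transcript row, the deposited normalized matrix on log2 of the score plus 1, and removal of a transcript length trend. Values within title prefixes, on log2 of CPM plus 0.1, were added after the data were seen. Promoter windows and motif shares are from RefSeq on GRCm38.p6, matched by symbol.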

Additional observations from a re-analysis of the deposited data

How the results depend on the processing

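The 17 genes called on oxymetholone became 86 with DESeq2, 46 with limma voom and quality weights, 27 without Fancd2-/- placebo replicate 3, 8 with a term for the title prefix and 0 with the 6 oxymetholone libraries alone (767 at an unadjusted p under 0.05, fewer samples for the spread). Leaving out one of the 6 libraries gave 2 to 8 calls. RLE size factors, no filter, the pair as a random effect (correlation 0.256), every transcript row, the deposited normalized matrix and a removed length trend gave 15, 19, 23, 18, 17 and 19. All 17 were among the genes called by DESeq2 and by both voom fits, and 10 of them among the 17 of the normalized matrix. None of the 17 changed direction under any of these, which for left-out oxymetholone libraries follows from groups that do not overlap. On placebo 170 calls became 809 with DESeq2, 1473 with voom and 76 without Fancd2-/- placebo replicate 3; the cause was not tested. The interaction called 0 genes under all 5 alternatives chosen earlier, with 272 to 790 at an unadjusted p under 0.05, and 0 with the flow cytometry pair as a replicate block (457 at an unadjusted p under 0.05, smallest adjusted p = 0.953) or as a random effect (692), both added after the data were seen. Over all alternatives and the 172 genes chosen by the naming rule 111 values lost a call, 44 gained one and 12, all of genes not called, changed sign. Ly6a (-0.01) was 0.036 with voom and quality weights and -0.19 to 0.17 when single libraries were left out. Klf2, Dusp1, Ddit4 and Serping1, at -2.30, -0.32, -0.43 and -1.02, changed sign without wild-type replicate 1, and their ranges were -2.84 to 0.27, -0.58 to 0.25, -0.65 to 0.12 and -1.95 to 0.053. Bst2 and Ctsg, at 0.31 and 0.70, changed sign without Fancd2-/- replicate 3, with ranges of -0.091 to 0.56 and -0.14 to 1.05. Itga9 ranged over -0.27 to 0.0059 and Igll1 over -0.90 to 0.011. Of the list medians 35 values moved by more than the spread between libraries. Over the 43 lists and 17 alternatives 90 medians changed sign, 6 of them with a size of at least 0.1 in the main fit. Medians of mitosis, p53 and imprinted genes ranged over 0.19 to 0.28, 0.19 to 0.34 and -0.44 to -0.35. Those of matrix, stem cell, respiratory chain and Fanconi genes ranged over -0.28 to -0.06, -0.14 to -0.07, 0.09 to 0.24 and 0.04 to 0.11, and those of neutrophil and monocyte markers over -0.08 to 0.40 and -0.02 to 0.16. For the genotype difference on one diet, no paired analysis was possible because genotype is constant within each flow cytometry pair, and the replicate numbers, given in sample order and not by the labels, pair no libraries. Levels under about 1 CPM rest on few reads in the shallowest libraries, which held 14.4 and 14.5 M reads.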

Other observations

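Some members of lists without a called gene did not overlap between the genotypes under oxymetholone, and are given as values. Over all genes tested 5.60% were higher and 6.83% lower without overlap, so single genes of this kind do not mark a list. Of 12 tested markers of T and NK cells 6 were above 0 and 6 below, with none called. Klrb1c, which encodes the NK cell receptor NK1.1, had 11.7, 15.1 and 9.94 CPM in Fancd2-/- cells, against 19.7, 19.9 and 23.8 CPM in wild-type cells (log2 difference -0.79, SE 0.18, edgeR adjusted p = 0.175). Cd4, the co-receptor of helper T cells, was at 2.05, 2.31 and 3.65 CPM against 5.08, 6.94 and 6.11 CPM in wild-type cells (-1.14, adjusted p = 0.387). Thy1, a surface glycoprotein of T cells and of some blood progenitors, lay on the higher side, at 58.5, 54.5 and 67.2 CPM against 40.4, 45.3 and 35.5 CPM in wild-type cells (0.57, adjusted p = 0.51).

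Osteopontin receptors and glycolytic enzymes also held single genes of this kind. Itgb5, an integrin subunit that pairs with the alpha V chain to bind osteopontin, had 34.7, 28.6 and 32.5 CPM in Fancd2-/- cells, against 50.96, 50.99 and 46.4 CPM in wild-type cells (log2 difference -0.63, SE 0.15, edgeR adjusted p = 0.212). It was the member of 9 with an unadjusted p under 0.05, as had 5.57% of all genes tested. Hk2, the hexokinase that begins glycolysis, was at 54.0, 53.6 and 63.6 CPM in Fancd2-/- cells, against 46.0, 42.5 and 43.6 CPM in wild-type cells (0.38, adjusted p = 0.636), while the median of the 19 glycolysis genes was 0.01.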
